A study of Mus musculus with 12 samples.

Results

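The genes described here are 10 receptors by which macrophages take up particles, lipids, microbes and antibody-coated material: Msr1, Marco, Cd36, Mrc1, Cd68, Cd14, Fcgr1, Fcgr2b, Fcgr3 and Fcgr4. They were taken by name and make up 10 of the 21887 protein-coding genes in the gene table. A peak was given to a gene where it shared at least 1 bp with the gene's mm10 extent plus 10 kb on either side, and no measured value entered this rule. The data are lists of places bound by the transcription factor MYC or its partner MAX, found by ChIP-seq, the sequencing of DNA pulled down with an antibody to the protein. The cells were RAW264.7, an immortal mouse line of monocyte and macrophage type. All samples are this 1 line. Cells had RANKL at 50 ng/ml together with the I-BET inhibitor at 500 nM, I-BET alone at 500 nM or RANKL alone at 50 ng/ml, each for 4 h, or were left untreated. There is 1 list for each antibody in each treatment, so no difference given here could be checked against replicates, and no p-value is given. The 4 input libraries were not used here.

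Scavenger receptors recognise modified lipoproteins, dying cells and bacterial surfaces, and Fc gamma receptors bind the constant part of IgG and either activate or restrain the phagocyte. Both families are abundant on macrophages, from which osteoclasts can form under RANKL. MAX pairs with MYC and with several repressors of the same network, and these pairs bind the E-box, a short motif of the form CANNTG with CACGTG as its preferred version. I-BET compounds block the bromodomains of the BET proteins, which read acetylated histones.

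The MAX lists held 6307 peaks with RANKL and I-BET, 36785 with I-BET, 10889 with RANKL and 8839 in untreated cells, so the number of peaks at any gene has to be read against the list it comes from. For MYC the lists were short, with 11 peaks under the combined treatment, 136 with I-BET, 299 with RANKL and 312 in untreated cells. A peak list does not measure expression, and read depth is unknown from these files. The cell type on the label was therefore looked at only through binding. Of 10 macrophage marker genes, 6, 9, 8 and 8 had a MAX peak in that order, where 30%, 65%, 42.3% and 37.4% of all protein-coding genes did. It was 0, 2, 0 and 0 of 7 fibroblast markers and 2, 3, 3 and 2 of 8 lymphocyte markers. Neutrophil markers had 1, 4, 2 and 3 of 7, and dendritic cell markers 2, 5, 2 and 2 of 6. The neutrophil markers Elane and Prtn3 had the same best peak with I-BET, with RANKL and without treatment, so it was counted for both genes. Such counts do not identify a cell type.

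Most of the receptor genes had MAX peaks except with RANKL and I-BET together, and MYC was listed near Cd68 alone. With RANKL and I-BET 4 of the 10 genes had a MAX peak (Msr1, Cd68, Cd14 and Fcgr3), where 30% of all protein-coding genes did. With I-BET alone it was 9 of 10 (65% of all genes), with Marco as the exception. With RANKL it was 8 of 10 (42.3% of all genes), with Marco and Fcgr4 as the exceptions. In untreated cells it was 6 of 10 (37.4% of all genes), and Mrc1 and Fcgr1 were without a peak as well. A MYC peak was listed at 0, 0, 1 and 0 of the genes with RANKL and I-BET, I-BET, RANKL and no treatment, against 0.064%, 0.434%, 2.02% and 2.05% of all genes. The median gene window was 35.1 kb long for the receptors and 37.2 kb for all genes. The windows of Msr1, Cd36 and Mrc1 were far longer than this median, at 120, 127 and 123 kb, and a longer window has more room for a peak.

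**Figure D1:**
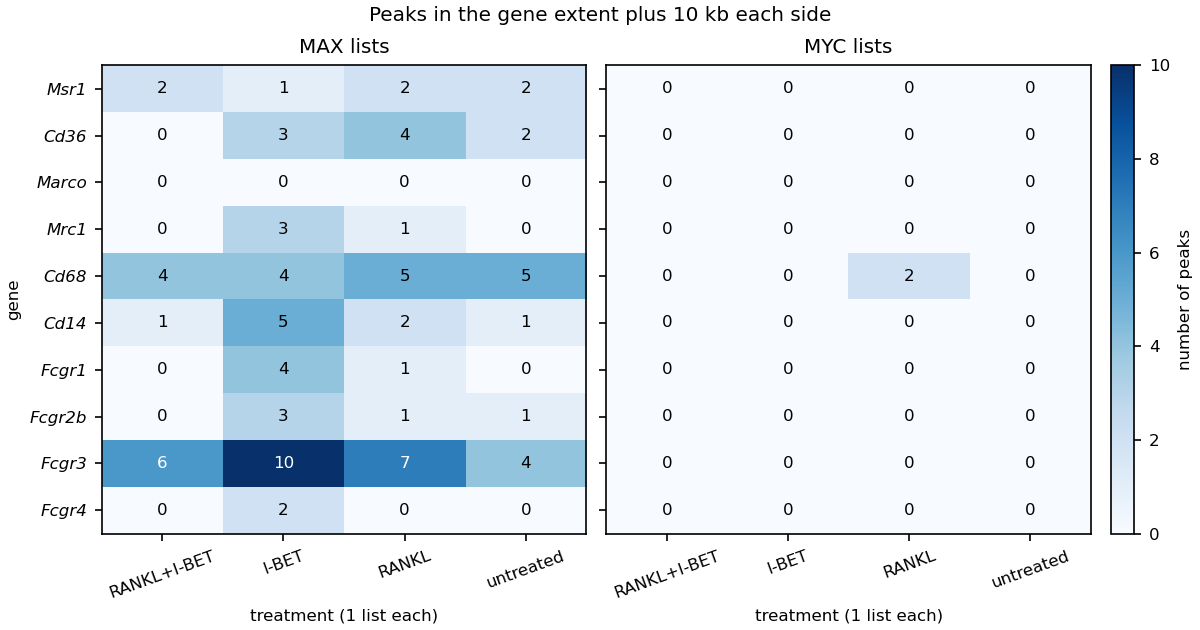
Number of MAX peaks (left) and MYC peaks (right) in the extent of each gene plus 10 kb each side, with 1 list per treatment; darker cells hold more peaks. Fcgr3 has the most MAX peaks with I-BET (10), Marco has 0 in every list, and the only MYC peaks are 2 near Cd68 with RANKL.

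Many of the MAX peaks stood in the windows of Cd68 and Fcgr3. The receptor windows held 13 MAX peaks with RANKL and I-BET, 35 with I-BET, 23 with RANKL and 15 in untreated cells. Per 100 kb of window this was 2.18, 5.87, 3.86 and 2.52 peaks, against 0.439, 2.39, 0.742 and 0.605 over the windows of all protein-coding genes. Cd68 and Fcgr3 alone held 10, 14, 12 and 9 of these peaks, and the other 8 windows held 0.557, 3.90, 2.04 and 1.11 per 100 kb. By the authors' score, which serves here only to rank peaks within a list, 4 of 13, 18 of 35, 12 of 23 and 4 of 15 stood in the top 50% of their list. The best-ranked was number 542, 503, 601 and 864 in that order. The first 3 of these lie at Eif4a1 next to Cd68, and the untreated one lies on a tRNA gene next to Fcgr3.

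Many of the peaks belong by position to another gene. With RANKL and I-BET 5 of 13 peaks overlapped a tRNA gene and 4 a neighbouring protein-coding gene or its promoter, which left 1 on a receptor promoter, 1 elsewhere in a receptor gene and 2 in a flank. With I-BET the split was 6, 4, 5, 12 and 8 of 35 peaks in the same order. With RANKL it was 7, 4, 2, 7 and 3 of 23, and in untreated cells 4, 4, 1, 3 and 3 of 15.

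The RefSeq promoters of the receptors, from 250 bases before the start to 50 after it, held no CACGTG in any case. Such promoters were at hand for 8 of the 10 genes (all but Msr1 and Cd14; Fcgr3 has a pair that overlap). On these 300 bases MAX was listed at Cd68 in all 4 treatments, at Fcgr1 with I-BET and with RANKL, and at Mrc1, Fcgr2b and Fcgr4 with I-BET alone. That is 1 of 8 with RANKL and I-BET, 5 of 8 with I-BET, 2 of 8 with RANKL and 1 of 8 in untreated cells. Of the 17492 protein-coding genes with such a promoter, 17.7%, 49.6%, 26.9% and 22.8% had a MAX peak on it. The 5 promoters with a peak and that of Marco, which had none, are shown 5′ to 3′ on their own strand in build GRCm38.p6 (the same assembly as mm10), with every CANNTG in capitals. They lie at chr11:69666121-69666420 (Cd68, minus strand), chr3:96293920-96294219 (Fcgr1, minus), chr2:14229164-14229463 (Mrc1, plus), chr1:170976022-170976321 (Fcgr2b, minus), chr1:171018676-171018975 (Fcgr4, plus) and chr1:120504975-120505274 (Marco, minus).
Cd68: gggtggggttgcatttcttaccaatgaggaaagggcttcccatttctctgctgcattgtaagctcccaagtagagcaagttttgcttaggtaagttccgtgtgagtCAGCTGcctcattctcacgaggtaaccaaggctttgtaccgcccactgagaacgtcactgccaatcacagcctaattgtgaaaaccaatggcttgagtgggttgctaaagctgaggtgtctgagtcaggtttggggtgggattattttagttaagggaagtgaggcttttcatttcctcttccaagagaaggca
Fcgr1: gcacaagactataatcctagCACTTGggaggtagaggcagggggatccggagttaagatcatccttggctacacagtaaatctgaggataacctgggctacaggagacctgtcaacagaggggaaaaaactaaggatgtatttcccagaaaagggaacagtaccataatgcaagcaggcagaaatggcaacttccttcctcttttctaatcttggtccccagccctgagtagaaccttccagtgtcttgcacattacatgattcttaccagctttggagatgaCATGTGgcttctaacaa
Mrc1: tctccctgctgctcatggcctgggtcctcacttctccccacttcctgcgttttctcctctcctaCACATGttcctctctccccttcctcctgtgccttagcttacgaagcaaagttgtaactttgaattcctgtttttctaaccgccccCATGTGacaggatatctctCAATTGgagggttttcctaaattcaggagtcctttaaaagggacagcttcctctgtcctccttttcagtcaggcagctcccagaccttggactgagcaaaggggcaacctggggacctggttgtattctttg
Fcgr2b: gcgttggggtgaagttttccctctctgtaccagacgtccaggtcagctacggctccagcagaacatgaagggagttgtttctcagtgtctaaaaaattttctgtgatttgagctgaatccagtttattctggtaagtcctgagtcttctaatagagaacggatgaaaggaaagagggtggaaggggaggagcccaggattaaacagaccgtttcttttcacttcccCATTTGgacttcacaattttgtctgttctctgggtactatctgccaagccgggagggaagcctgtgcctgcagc
Fcgr4: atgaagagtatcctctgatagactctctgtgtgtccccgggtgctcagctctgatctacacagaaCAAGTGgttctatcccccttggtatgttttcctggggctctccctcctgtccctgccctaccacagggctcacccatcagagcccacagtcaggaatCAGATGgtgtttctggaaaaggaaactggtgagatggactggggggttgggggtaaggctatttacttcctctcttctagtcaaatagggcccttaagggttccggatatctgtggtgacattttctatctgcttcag
Marco: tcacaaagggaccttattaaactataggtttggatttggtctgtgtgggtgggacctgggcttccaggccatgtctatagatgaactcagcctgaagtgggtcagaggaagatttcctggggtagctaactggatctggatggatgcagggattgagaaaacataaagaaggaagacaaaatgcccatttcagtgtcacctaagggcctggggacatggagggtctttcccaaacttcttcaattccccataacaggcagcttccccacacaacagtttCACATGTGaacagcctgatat

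The motifs were searched on both strands. CACGTG is in 7.15% of all 32851 promoters of the table and CACGCG in 9.27%, and neither is in any of the 8 receptors' promoters. The loose form CANNTG, which includes CACGTG, is in 72.3% of all promoters. As the capitals show, it occurs 1 time in Cd68, 2 times in Fcgr1, 3 times in Mrc1, 1 time in Fcgr2b and 2 times in Fcgr4. Marco, without a MAX peak, also holds 2, which overlap each other. Cd36 holds 2 and the Fcgr3 promoters hold none. GAGGAA, a purine-rich motif of the kind bound by the myeloid factor PU.1, is in 28.3% of all promoters and in those of Mrc1, Cd68, Fcgr1, Fcgr3, Fcgr4 and Marco, but not in those of Cd36 and Fcgr2b. A match says nothing of binding at that place.

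The receptors' promoters are poor in CpG, and few promoters of that kind carry MAX in these lists. They hold 0 to 6 CpG (median 3), against a median of 7 over all promoters, and 43% to 51% G and C (median 47.5%), against 52.7%. Of the 7590 promoters of protein-coding genes with no more than 6 CpG, 0.725% overlapped a MAX peak with RANKL and I-BET, 7.97% with I-BET, 1.57% with RANKL and 1.15% in untreated cells. Of the 13673 with more CpG it was 24.7%, 69.9%, 38.1% and 32.1%. The receptors' 1, 5, 2 and 1 of 8 stand beside these shares as counts of genes chosen by name, and the split at 6 CpG was set after their promoters were seen. With as many top-scored peaks from every MAX list as the smallest holds (6307), the counts became 1, 0, 1 and 1 of 8, and the I-BET peaks on all 5 promoters were left out. In that setting 0.725%, 1.07%, 0.764% and 0.764% of the promoters with no more than 6 CpG had a MAX peak.

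Among the scavenger receptors, Msr1 (class A, a receptor for modified lipoproteins) had MAX in all 4 lists but in no place common to them. The gene spans chr8:39543232-39642750. It had 2 MAX peaks with RANKL and I-BET, 1 with I-BET, 2 with RANKL and 2 in untreated cells, in 4 separate places. The untreated peaks had their centres 457 bp and 1975 bp beyond the end of higher coordinate (ranks 5002 and 4908 of 8839). The RANKL list had the nearer of these (rank 6481 of 10889) and added chr8:39619787-39620130, inside the gene. The combined treatment had the farther one (rank 5840 of 6307) and the inner one (rank 1710). The I-BET list had neither end peak and showed 234 bp at chr8:39637431-39637664 (rank 26861 of 36785), which overlapped a peak in no other MAX list. Of the 15 untreated peaks in receptor windows, 13 were overlapped in the I-BET list, and those that were not are these 2 of Msr1. Over the whole series 2.53% of untreated MAX peaks were not overlapped there. The same held for the combined treatment: of its 13 peaks 11 were overlapped with I-BET alone, the others again being the 2 of Msr1, against 0.967% of all its peaks not overlapped. Of the 23 RANKL peaks, 4 were not overlapped with I-BET, 2 at Msr1 and 1 each at Cd36 and Cd14, against 3.11% of all RANKL peaks.

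Cd36 (class B, which takes up oxidised lipoprotein and long-chain fatty acids) had MAX peaks inside its long annotated extent and none on its RefSeq promoter. The extent is chr5:17781690-17888959, and the RefSeq start in the promoter table lies at 17835896, so all these peaks are upstream of it and still within the annotated extent. The gene had 0 peaks with RANKL and I-BET, 3 with I-BET, 4 with RANKL and 2 in untreated cells. Peaks centred 18.7 to 18.8 kb and 21.8 to 22.2 kb upstream were listed with I-BET, with RANKL and without treatment. A peak 44.1 kb upstream was listed with I-BET (rank 25219 of 36785) and with RANKL (rank 2498 of 10889), and another 6.68 kb upstream with RANKL alone (rank 7068). With RANKL, 2 of the 4 peaks stood in the top 50% of the list, and with I-BET 1 of 3.

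**Figure D2:**
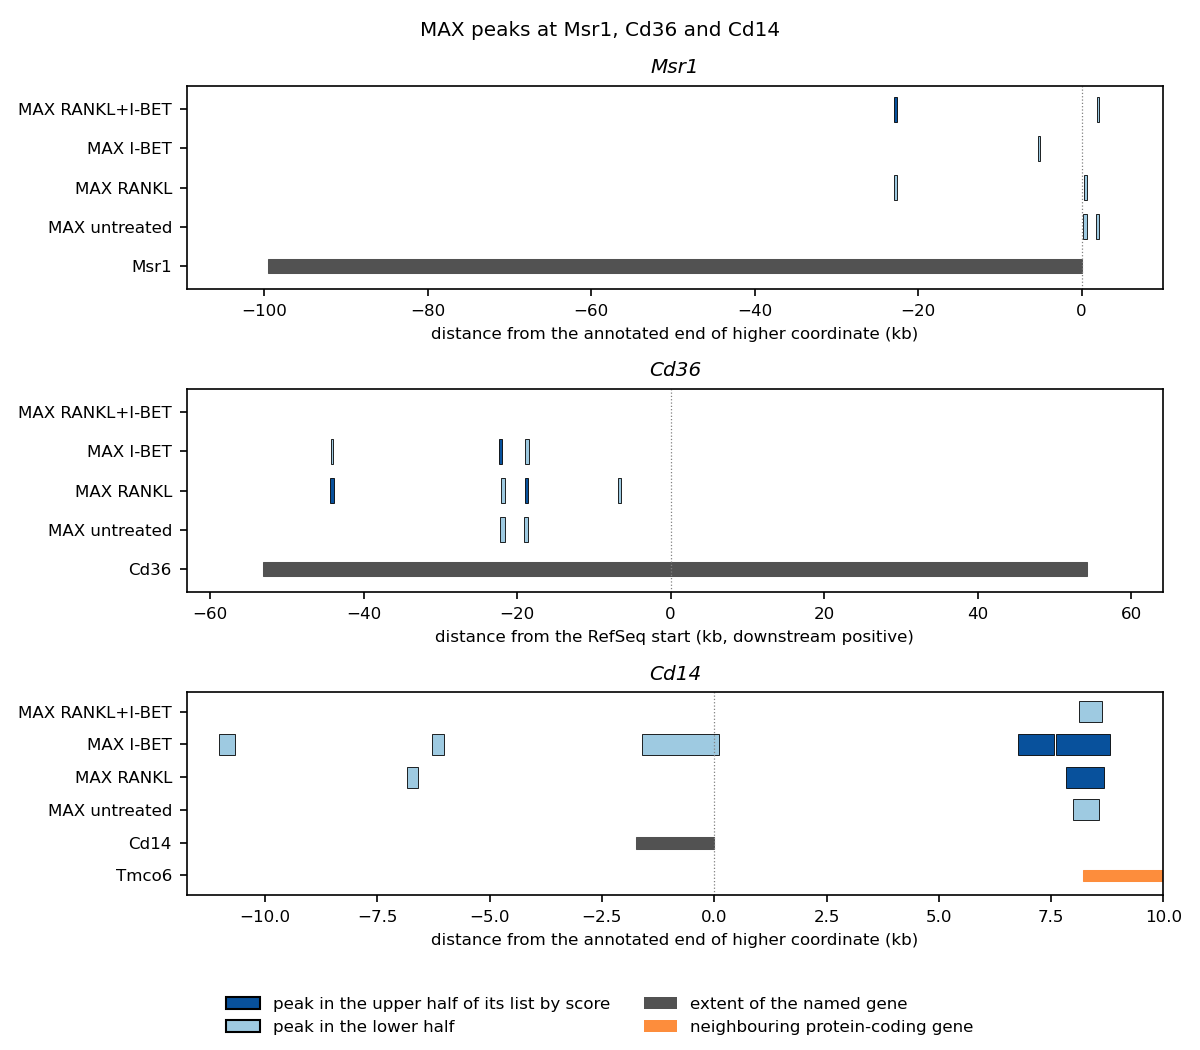
MAX peaks at Msr1, Cd36 and Cd14 by treatment, drawn to scale against distance in kb from the annotated end of higher coordinate (Msr1, Cd14) or from the RefSeq start (Cd36); dark boxes are peaks in the top 50% of their list and light boxes the rest, with gene extents below. The I-BET peak of Msr1 lies apart from the others, Cd36 has 0 peaks with RANKL and I-BET, and Cd14 has a peak at its own gene with I-BET alone.

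Marco (class A, a receptor for bacteria and inhaled particles) had no MAX and no MYC peak in any list. The nearest MAX peak lay 238 kb from its extent (chr1:120474538-120505024) with RANKL and I-BET, 209 kb with I-BET, 209 kb with RANKL and 209 kb in untreated cells. Marco shares this absence with 34.8% of all protein-coding genes. A gene without a listed peak is not shown to lack MAX.

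Mrc1 (the mannose receptor CD206, chr2:14229414-14332023) was listed with I-BET and with RANKL and not otherwise. A peak 66.2 kb downstream of the start, inside the gene, was common to the I-BET list (chr2:14295464-14295729, rank 18060 of 36785) and the RANKL list (chr2:14295420-14295768, rank 4534 of 10889). The I-BET list added a peak on the promoter (chr2:14229089-14229540, rank 25779), the sequence of which is given above, and 1 peak 15.5 kb downstream (rank 34000). Neither stood in the top 50% of the list.

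Cd68 (macrosialin, a glycoprotein of late endosomes and lysosomes) was bound on its promoter in all 4 treatments, yet the strongest peaks of its window lay at Eif4a1, the gene of a translation initiation helicase. Cd68 is short (chr11:69664213-69666170) and lies among Sox15, Mpdu1, Eif4a1 and Senp3. On the promoter stood a 467 bp peak with RANKL and I-BET (rank 4331 of 6307), a 2916 bp peak with I-BET (rank 12980 of 36785), a 589 bp peak with RANKL (rank 7865 of 10889) and a 449 bp peak in untreated cells (rank 5390 of 8839). The I-BET peak covers the whole gene and joins 5 called peaks. A separate peak at the other end of Cd68 was listed with RANKL (rank 8240) and without treatment (rank 7360). At Eif4a1 the best rank was 542 with RANKL and I-BET, 503 with I-BET, 601 with RANKL and 1168 in untreated cells. The 2 MYC peaks, with RANKL only, also lay at Eif4a1, 5.29 and 6.34 kb upstream of the Cd68 start (chr11:69671312-69671615, rank 45 of 299, and chr11:69672347-69672673, rank 211). Neither overlapped the Cd68 gene, so with the gene extent alone no receptor had a MYC peak. A further MAX peak stood at Mpdu1, a gene needed for the use of dolichol-linked mannose, in all 4 lists, and 1 at Sox15 with I-BET.

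**Figure D3:**
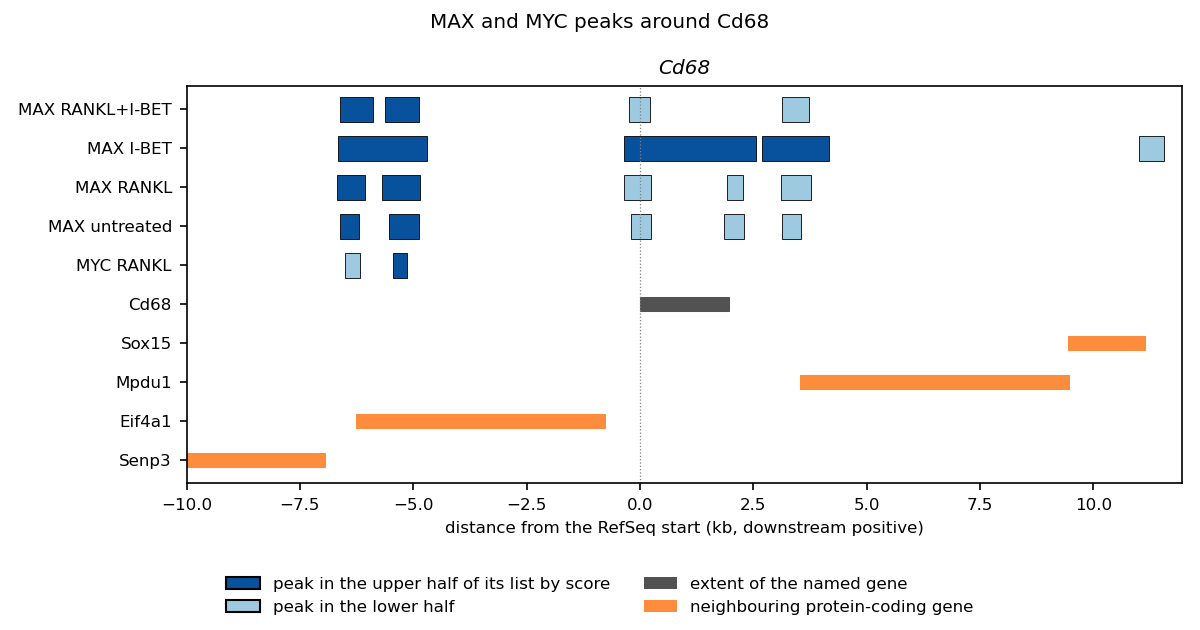
MAX and MYC peaks around Cd68, drawn to scale against distance in kb from its RefSeq start (downstream positive), with 1 row per list and the neighbouring genes below; dark boxes are peaks in the top 50% of their list. The dark peaks, and both MYC peaks, lie at Eif4a1 between 4 and 7 kb upstream, apart from the I-BET peaks on Cd68 and Mpdu1.

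Cd14 (the coreceptor that hands lipopolysaccharide to Toll-like receptor 4, chr18:36725064-36726815) had 1 MAX peak with RANKL and I-BET, 5 with I-BET, 2 with RANKL and 1 in untreated cells. The peak that all 4 lists share overlaps the end of lower coordinate of Tmco6. It begins 8.12 kb beyond the extent of Cd14 in the combined list and 7.98 kb beyond it in untreated cells. A peak on Cd14 itself was listed with I-BET alone (chr18:36725205-36726913, 1709 bp, rank 18740 of 36785), and it covers most of the gene and its end of higher coordinate. The RANKL list added 243 bp at chr18:36719981-36720223 (rank 6541 of 10889), which no other list overlapped.

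Among the Fc receptors, Fcgr1 (the high-affinity IgG receptor CD64, chr3:96282909-96293969) had MAX on its promoter with I-BET and with RANKL and no peak in its window in the other treatments. The I-BET peak measured 1198 bp (chr3:96293238-96294435, rank 16720 of 36785) and the RANKL peak 377 bp (chr3:96293735-96294111, rank 2549 of 10889), and both span the start. In the RANKL list it was the only receptor promoter peak in the top 50%. The I-BET list added 3 peaks, 1 of them inside the gene, 1 located 7003 bp upstream (rank 13654) and 1 located 15.8 kb downstream, past the gene (rank 5961). No other gene of the table lies in this window.

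Fcgr2b, the inhibitory Fc receptor (chr1:170960558-170976071), had a MAX peak 22.7 kb downstream of its start, beyond the gene, with I-BET, with RANKL and in untreated cells. Its ranks were 24181 of 36785, 5392 of 10889 and 5327 of 8839, and nothing was listed with RANKL and I-BET. With I-BET alone there were 2 more, 375 bp on the promoter (chr1:170975835-170976209, rank 16060) and 578 bp inside the gene (rank 19419). Fcgr4 (an activating receptor of intermediate affinity, chr1:171018926-171029761) was listed with I-BET alone. Its 2 peaks lay on the promoter (chr1:171018684-171019073, rank 27611) and 0.732 kb downstream (rank 32155), both outside the top 50%.

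**Figure D4:**
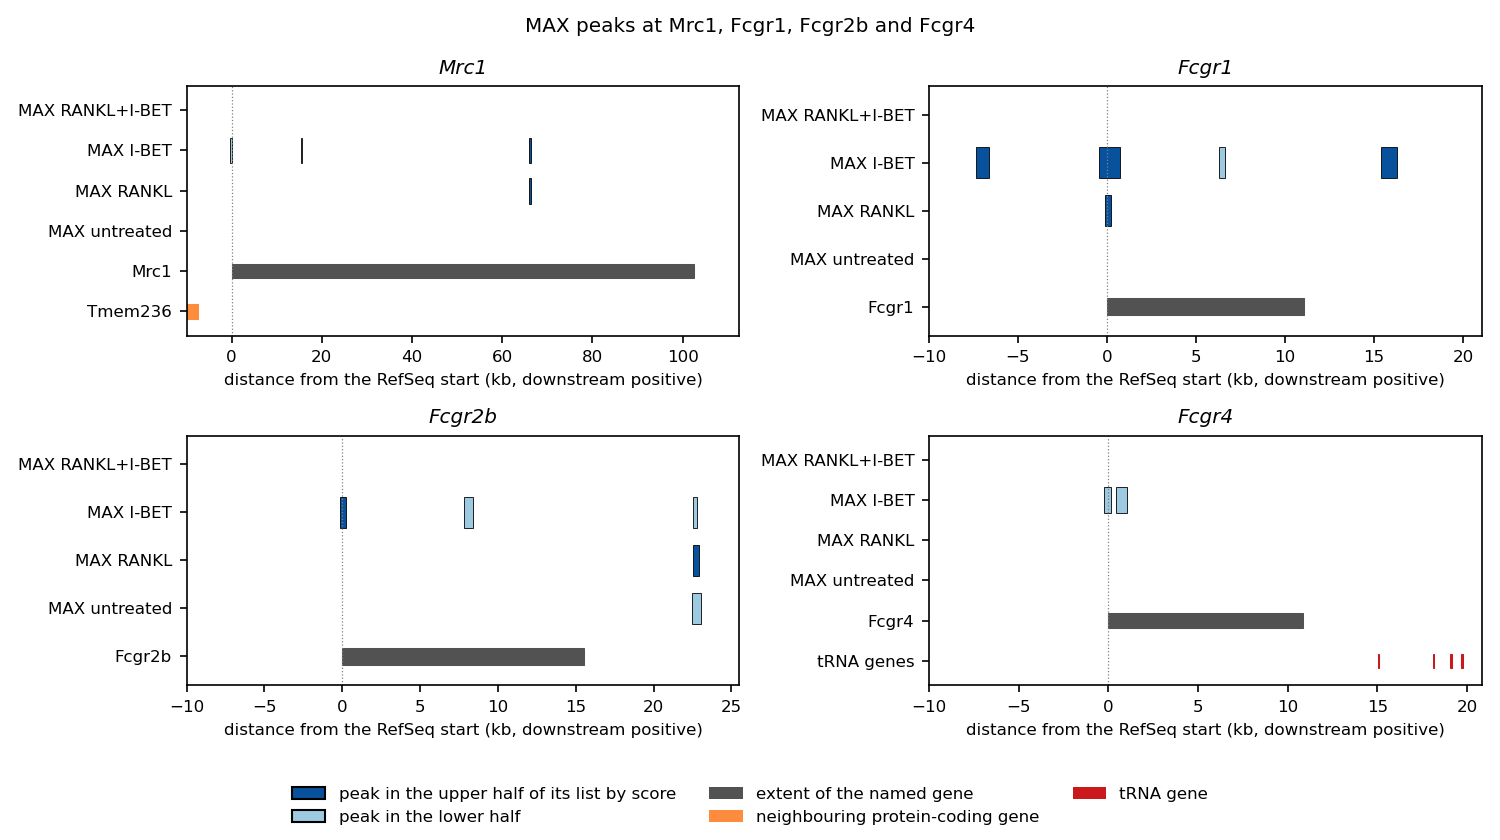
MAX peaks at Mrc1, Fcgr1, Fcgr2b and Fcgr4, drawn to scale against distance in kb from the RefSeq start (downstream positive), with 1 row per MAX list and gene extents below; dark boxes are peaks in the top 50% of their list. Each gene has an I-BET peak at distance 0, Fcgr1 has a RANKL peak there too, and no peak is listed with RANKL and I-BET.

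Fcgr3 (the low-affinity activating receptor CD16, chr1:171051169-171065915) had the most MAX peaks of the receptors with RANKL and I-BET, with I-BET and with RANKL, and most of them lay on tRNA genes. The numbers were 6 with RANKL and I-BET, 10 with I-BET, 7 with RANKL and 4 in untreated cells. Of these 5, 6, 7 and 4 overlapped a tRNA gene. No peak touched the RefSeq promoters of Fcgr3 in any treatment. Peaks inside the gene and off tRNA genes were listed with I-BET alone, 2 in number, at ranks 32021 and 35968 of 36785. Without the peaks on tRNA genes, Fcgr3 had 1, 4, 0 and 0 MAX peaks in the same order. The 1 peak left in the combined list lies within a RANKL peak that also overlaps a tRNA gene.

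The window of Fcgr3 holds 11 tRNA genes, of which 10 form 2 copies of a group of 5 for glutamate, glycine, aspartate, leucine and glycine (n-TEctc5, n-TGtcc1, n-TDgtc3, n-TLcag6 and n-TGgcc12 in the first copy). The copies repeat with nearly the same spacing, at 7628 bp from n-TEctc5 to n-TEctc8 and 7635 bp from n-TGtcc1 to n-TGtcc5, and a further copy starts at n-TEctc7, outside the window. In the first copy n-TEctc5, n-TGtcc1 and n-TDgtc3 lie inside the annotated extent of Fcgr3. MAX was listed at 5 of the 11 tRNA genes with RANKL and I-BET, 10 of 11 with I-BET, 7 of 11 with RANKL and 4 of 11 in untreated cells. Over all 408 tRNA genes of the table it was 7.11%, 39.7%, 16.4% and 11.3%. The second gene of the group, for glycine, had a MAX peak in all 3 copies in every treatment, and the aspartate and leucine genes had one with I-BET alone, n-TLcag7 excepted, which had none. Reads from such near copies may be hard to assign, and the handling of reads with several matches is not given in the sources. Its part in these peaks was not tested. The window of Fcgr4 holds 4 further tRNA genes, of which 0 had a MAX peak in any treatment. MYC overlapped 0 tRNA genes of either window in every list, where 0.49% of all tRNA genes had a MYC peak with RANKL and 0% in the other 3 lists.

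**Figure D5:**
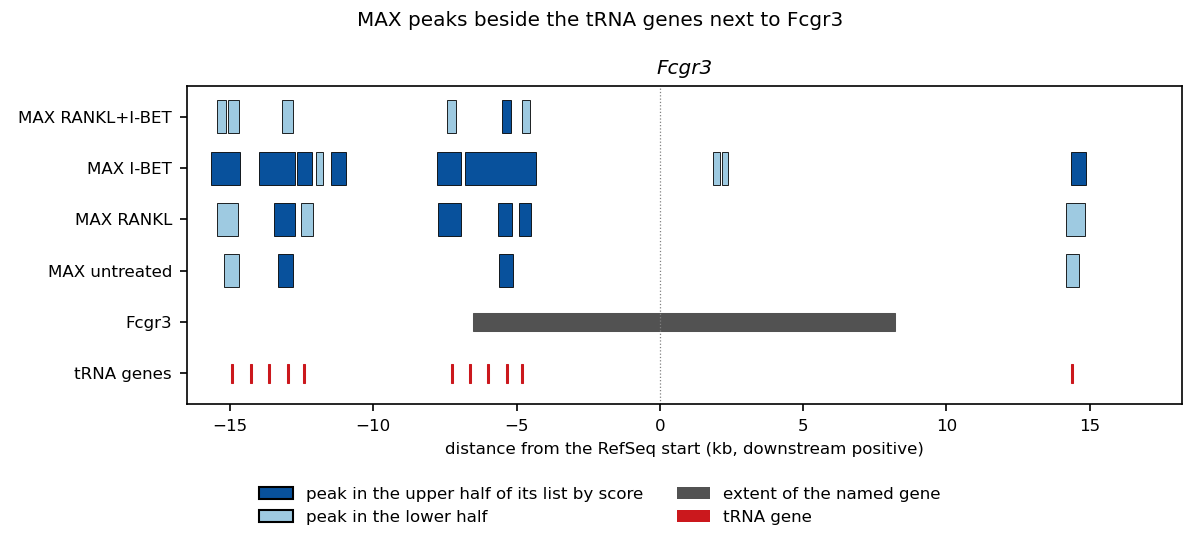
MAX peaks around Fcgr3, drawn to scale against distance in kb from its RefSeq start (downstream positive), with 1 row per MAX list, the gene extent and the tRNA genes below; dark boxes are peaks in the top 50% of their list. Most peaks overlap a tRNA gene, 4 of the 10 with I-BET and 1 of the 6 with RANKL and I-BET do not, and no peak lies at distance 0.

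RANKL, the cytokine that starts osteoclast formation, was set against no treatment. Mrc1 and Fcgr1 gained a MAX peak (listed with RANKL and not without), 0 lost theirs and 6 had one in both, where 7.99% of all genes gained and 3.07% lost one. Of the 23 RANKL peaks, 9 overlapped no untreated peak, against 34% of all RANKL peaks. They lay at Msr1, Cd36 (2), Mrc1, Cd14, Fcgr1 and Fcgr3 (3). In the top 50% of each list 5 receptors gained a peak, Cd36, Mrc1, Cd14, Fcgr1 and Fcgr2b, of which 3 had a lower-ranked untreated peak. In that setting 7.36% of all genes gained a peak.

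I-BET was set against the same untreated list. Mrc1, Fcgr1 and Fcgr4 gained a MAX peak and 0 receptors lost theirs, where 27.7% of all genes gained and 0.0959% lost one. Of the 35 I-BET peaks 24 overlapped no untreated peak, against 77.3% of all I-BET peaks. The direction at the receptors turned with 6307 top-scored peaks from each list: 3 receptors had a peak with I-BET and 5 in untreated cells, against 33.6% and 30% of all genes. Fcgr1 was then gained, where 7.94% of all genes were, while Msr1, Cd36 and Fcgr2b were lost, where 4.38% of all genes were. The Fcgr1 peak kept with I-BET lay 15.8 kb downstream, past the gene (rank 5961), and the promoter peak (rank 16720) was left out.

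The combined treatment was set against each compound alone. Against RANKL, Cd36, Mrc1, Fcgr1 and Fcgr2b lost their MAX peaks and 0 receptors gained one, where 13.6% of all genes lost and 1.35% gained one. Of the 23 RANKL peaks 12 were not overlapped in the combined list, against 48.8% of all RANKL peaks, and 4 of the 12 were all those of Cd36. Against I-BET the same 4 genes and Fcgr4 were lost and 0 gained, where 35% of all genes lost and 0% gained one. These 2 comparisons share the combined list, as the 2 before them share the untreated one. With equal numbers of top-scored peaks, 4 receptors had a peak in the combined list, against 3 with I-BET and 7 with RANKL, and the shares of all genes were 30%, 33.6% and 29.8% in that order.

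Merged across treatments, the MAX peaks of the receptor windows fall into 40 regions. Of these 19 were listed with I-BET alone, 7 in all 4 treatments, 4 with I-BET and RANKL, 4 in all but the combined treatment, and 2 with RANKL alone. Over the whole series, with regions outside any gene window included, there were 37124 MAX regions merged in the same way. Of those, 66.9% were listed with I-BET alone, 12.9% in all 4 treatments and 6.94% with I-BET and RANKL. A further 5.74% were listed in all but the combined treatment and 0.641% with RANKL alone. The 7 regions of the receptor windows listed in all 4 treatments are 3 at Fcgr3, each overlapping tRNA genes, 3 at Cd68 and 1 at Tmco6 near Cd14. Of those at Cd68, 2 are at Mpdu1 and Eif4a1. The Cd68 promoter is the only receptor promoter among them.

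The related genes were taken from 6 lists. A peak was counted anywhere in the window of each gene, and whether it lies at a neighbouring gene was not looked at. Of all protein-coding genes 30%, 65%, 42.3% and 37.4% had a MAX peak with RANKL and I-BET, I-BET, RANKL and no treatment. Other scavenger receptors had a MAX peak in 8 of 18 cases with RANKL and I-BET, 13 with I-BET, 11 with RANKL and 10 in untreated cells. The highest-ranked in untreated cells was Cxcl16, a scavenger receptor for phosphatidylserine and oxidised lipoprotein (rank 296 of 8839), followed by Axl (1628), Scarb2 (2783) and Scarf1 (2906). Other Fc receptors and the signalling gamma chain Fcer1g had 3, 8, 4 and 4 of 10. In untreated cells Fcer2a stood at rank 1971, Fcrl5 at 3221, Fcrl1 at 4203 and Fcer1g at 8332. Fc receptor signalling genes had 10, 14, 14 and 13 of 14, led in untreated cells by the inhibitory phosphatase genes Inpp5d (rank 1026) and Ptpn6 (1637), with the adaptor gene Gab2 at 2274.

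The partners of CD14 and the Toll-like receptors had a MAX peak in 8, 16, 11 and 10 of 17 cases in the same order. The window of Tlr2 held a MYC peak too, at rank 105 of 299 with RANKL and rank 15 of 312 in untreated cells. The best MAX peak of that window held rank 84 in untreated cells. Cd180 had a MYC peak in untreated cells (rank 300 of 312). Its MAX peak held rank 1630 in untreated cells. The adaptor gene Ticam1 and the kinase gene Irak4 of Toll-like receptor signalling held MAX ranks 600 and 2845 there. Lipid uptake and efflux genes had 5, 13, 9 and 6 of 14, with Lipa, the lysosomal acid lipase gene, listed for MYC with RANKL (rank 236) and at MAX rank 559 in untreated cells, and Abca1, Nr1h2 and Nr1h3 at MAX ranks 1020, 1380 and 3419.

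C-type lectin receptors, to which the mannose receptor is related, had a MAX peak in 0 of 13 cases with RANKL and I-BET, 9 with I-BET, 6 with RANKL and 0 in untreated cells. The shares of all protein-coding genes were 30%, 65%, 42.3% and 37.4% in that order. The lectin receptor genes with a MAX peak under RANKL were Clec4d, Clec4a2, Clec5a, Clec10a, Clec12a and Clec2d, named after their values were seen. Their best RANKL ranks ran between 5713 and 10101 of 10889, all outside the top 50%. Clec2d had no peak with I-BET.

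Likeness between genes was taken as the summed difference over the 4 MAX lists in the rank percentile of the best peak, with 0 where there is none. It is 0 only where all 4 percentiles are equal, and it was computed against the genes of these lists. The nearest gene to Fcgr4 was Clec7a (0.750), to Cd68 Lipa (13.8), to Mrc1 Clec12a (14.5), to Fcgr1 Abcg1 (14.9), to Fcgr2b Megf10 (17.2), to Fcgr3 Ticam1 (17.6), to Cd36 Megf10 (42.4) and to Cd14 Ly86 (42.7). Msr1 had no near match, with Tlr6 at 95.9. The best peak is the best anywhere in the gene's window. In all 4 lists it lay at Eif4a1 for Cd68, on a tRNA gene for Fcgr3 and at Tmco6 for Cd14. The matches of these genes therefore describe those places and not the receptor genes themselves. In some lists the best peak also lay in a flank, for Fcgr1 with I-BET and for Msr1 and Fcgr2b with RANKL and without treatment. Fcgr4 and Clec7a both had a MAX peak with I-BET alone, so the other lists add 0 to their distance.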

How the data were processed

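The submitters' processing notes name FastQC, Bowtie2 2.3.4.1, MACS2 2.1.1.20160309 and the builds mm10 and GRCm38. Each of the 8 deposited peak lists gives positions, joined peak names and a score per peak, which the authors set. By their names, peaks join calls from 3 sets whose nature is not stated, and each antibody has 1 labelled library per treatment although the protocol speaks of replicates. Calling thresholds, input use and duplicate handling are not given in the sources used. Peak names carry one tag for MYC and another for MAX, so the antibodies were not compared by number. Starts were raised by 1, on the assumption of the BED convention. Gene extents came from the RefSeq table of GRCm38.p6 and promoters from RefSeq sequences of that build. Overlap needed at least 1 bp. The members, gene lists and rules were chosen with earlier results of these data known. Named genes were all 10 receptors, list genes with a MYC peak, the up to 4 list genes with the best MAX rank in untreated cells, the nearest genes by likeness, and neighbours under a peak; 1 gene that this rule names is not reported here. The alternatives were other windows, stricter scores, equal numbers of top peaks and no peaks under 100 bp, and leaving out peaks on tRNA genes, or the windows of Cd68 and Fcgr3 for peak density, was added after seeing the data. Groups came from sample titles. Python 3.11.15, numpy 2.4.6 and pandas 2.3.3 were used. Tested on simulated data, the overlap code recovered 3000 of 3000 genes given a peak and differed from bedtools 2.31.1 at 0 of 21887 genes.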

Additional observations from a re-analysis of the deposited data

Results flagged for a closer look

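The I-BET inhibitor went with more MAX peaks at the receptors in the absence of RANKL and with fewer in its presence. The number of receptors with a MAX peak differed by 3 between I-BET and untreated cells, and by -4 between RANKL with I-BET and RANKL. The number of MAX peaks in the receptor windows differed by 20 and by -10 in the same comparisons. The difference between these effects was not tested, since each treatment has 1 list. Over all protein-coding genes the direction was the same, with a MAX peak at 14223 genes with I-BET against 8175 in untreated cells, and at 6566 genes with RANKL and I-BET against 9250 with RANKL. With equal numbers of top-scored peaks both comparisons ran downward in the number of receptors, at 3 receptors with I-BET against 5 in untreated cells, and 4 with RANKL and I-BET against 7 with RANKL. All genes did not follow in that setting, with a MAX peak at 33.6% with I-BET against 30% in untreated cells, and at 30% with RANKL and I-BET against 29.8% with RANKL. The receptor windows then held 13 MAX peaks with RANKL and I-BET and 13 with RANKL, and 6 with I-BET against 11 in untreated cells. Those 6 I-BET peaks lay at Mpdu1 and Eif4a1 beside Cd68, on tRNA genes in the Fcgr3 window, and past the end of Fcgr1. No receptor promoter kept an I-BET peak.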

How the results depend on the processing

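Leaving out peaks under 100 bp moved no count. With the gene extent alone, 3 receptors had a MAX peak in untreated cells (27.8% of all genes), 0 had a MYC peak with RANKL (1.12%), 6 gained a MAX peak with I-BET against untreated cells (29.7%), and the MAX peaks numbered 4 with RANKL and I-BET, 18 with I-BET, 11 with RANKL and 5 in untreated cells. With 25 kb on each side there were 65, 36 and 27 MAX peaks with I-BET, with RANKL and without treatment, 1 receptor gained a peak with RANKL (7.64% of all genes) and 1 with I-BET (24.3%) against untreated cells, and 3 lost theirs in the combined list against I-BET (32.3%). Within 1 kb of a gene end, 2, 4 and 3 receptors had a MAX peak with both compounds, with RANKL and without treatment (18.6%, 27.8% and 23.7% of all genes), 0 had a MYC peak with RANKL (1.04%), and the MAX peaks numbered 2, 10, 6 and 4. There 5 receptors gained a MAX peak with I-BET against untreated cells (26.6% of all genes) and 1, Msr1, lost its own (0.0137%). With RANKL 1 receptor gained a peak (6.78%). The combined list lost 2 receptors against RANKL (10.4%) and 5 against I-BET (31.6%). In the top 50% of each list by score 2 receptors had a MAX peak in untreated cells (22.8% of all genes), the MAX peaks numbered 4, 18, 12 and 4, the gains against untreated cells were 5 with RANKL (7.36%) and 5 with I-BET (33.8%), and 1 receptor, Msr1, was gained in the combined list against RANKL (1.6%) and 1 against I-BET (0.0685%). With equal numbers of top-scored peaks (6307 for MAX and 11 for MYC), 3 receptors had a MAX peak with I-BET (33.6% of all genes), 0 had a MYC peak with RANKL (0.0457%), and there were 6 MAX peaks with I-BET and 13 with RANKL. In that setting 1 receptor was lost with RANKL (5.56% of all genes), 1 gained (7.94%) and 3 lost (4.38%) with I-BET against untreated cells, 1 gained in the combined list against RANKL (5.32%), and 2 gained (4.26%) and 1 lost (7.87%) against I-BET. Without peaks on tRNA genes the combined list held 8 MAX peaks and gained 1 receptor, Fcgr3, against RANKL (1.37% of all genes). The combined peak behind this gain (chr1:171074541-171074852) lies within a RANKL peak (chr1:171074112-171074856) that was left out because it also overlaps a tRNA gene. The place itself is therefore listed in both. These shifts follow from which peaks and bases each setting admits. No paired analysis was possible because each antibody and treatment has 1 list and no result comes from a test.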
